A study of Arabidopsis thaliana with 34 samples.

Results

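NRPE1 occupancy after loss of H1 was compared with NRPE1 occupancy after DMS3 was tethered to chromatin. The libraries were chosen by their labels, as those made with the NRPE1 antibody from *h1* plants and from ZF108-DMS3 plants, and they number 4 of the 34 in the series, 2 for each genotype. The *h1* plants carried homozygous mutations in both main linker histone genes (alleles *h1.1-1* and *h1.2-1*). The ZF108-DMS3 plants were 1 homozygous transgenic line of WT Col-0 that carries DMS3 fused to 3xFLAG and the zinc finger ZF108, and both of its H1 genes are intact. The promoter that drives the fusion is not given in the sources used here. Both genotypes share the Col-0 background, and 2 NRPE1 libraries of non-transgenic Col-0 (WT) served as the common reference. Floral tissue is named in the sample labels, whereas the methods describe ChIP on pooled seedlings aged 10 to 12 days, and peak lists cannot tell these apart. Each library is a separate list of peaks called by the authors with MACS2. Since the lists hold no counts of reads, depth is unknown and the precision is set by the 2 libraries per genotype.

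RNA-directed DNA methylation (RdDM) is the plant pathway in which small RNAs guide a DNA methyltransferase to matching loci. RNA polymerase V (Pol V), whose largest subunit is NRPE1, makes the scaffold transcripts that those small RNAs recognise, and it normally acts on short TEs and on the edges of long ones in gene-rich chromatin. DMS3, with DRD1 and RDM1, forms the DDR complex that loads Pol V. Linker histone H1 binds nucleosomes and compacts heterochromatin, the chromatin of TEs around centromeres that is marked by H3K9me2. Loss of H1 therefore removes a chromatin protein over the whole genome, whereas the zinc finger fusion brings a Pol V loading factor to DNA sequences. ZF108 was designed to bind a repeat in the promoter of *FWA*, a homeobox gene of flowering that RdDM silences, and it is known to bind many other sites.

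Before the comparison, the replicates were set against each other. The *h1* lists shared 0.806 of the bases covered in either list, and the ZF108-DMS3 lists 0.330. Of the peaks of ZF108-DMS3 replicate 1, 42.8% (7786) did not overlap a peak of replicate 2, and 5.16% of these lay on regions where both WT lists had NRPE1. Of the peaks of replicate 2, 48.9% (9953) did not overlap replicate 1, and 85.8% of these lay on such WT regions. The unshared peaks of replicate 2 were thus mostly at sites of WT, and those of replicate 1 mostly were not. Every value below is therefore given for each library. The replicates of the labels are separate samples of pooled seedlings, and tests over them measure only the spread between these samples. An exact permutation test of 2 libraries against 2 reaches a two-sided p of 0.333 at the lowest, and no difference could therefore pass a threshold of 0.05. Of the 13 measures compared, 12 gave that smallest p by the exact permutation test, because both *h1* values lay on one side of both ZF108-DMS3 values, and 1 gave p = 1.

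The sequences under some of the strongest peaks give examples of the sites of both genotypes, and are taken from RefSeq for the TAIR10.1 assembly, plus strand, 5′ to 3′. The windows of 121 bp are centred on the summit in replicate 1. Capitals mark words of 8 bases that were more frequent at ZF108-DMS3-only summits than at *h1*-only summits (counted further below). The 4 strongest ZF108-DMS3-only regions whose window holds no UTR are shown first, because they were the highest peaks that only the tethered line had. Of these 4, the windows near CRF3 and AT4G26288 hold none of the words.
Upstream of XYP1, chr5:25646857-25646977: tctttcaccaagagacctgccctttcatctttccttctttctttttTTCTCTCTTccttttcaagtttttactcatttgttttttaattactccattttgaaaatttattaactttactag
Upstream of CTR1, chr5:980504-980624: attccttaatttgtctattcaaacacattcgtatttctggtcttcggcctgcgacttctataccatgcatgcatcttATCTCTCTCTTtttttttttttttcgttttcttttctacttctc
Nearest gene CRF3, chr5:21622328-21622448: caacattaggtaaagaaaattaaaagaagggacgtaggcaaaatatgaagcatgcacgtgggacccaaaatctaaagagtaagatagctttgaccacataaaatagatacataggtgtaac
Upstream of AT4G26288, chr4:13307306-13307426: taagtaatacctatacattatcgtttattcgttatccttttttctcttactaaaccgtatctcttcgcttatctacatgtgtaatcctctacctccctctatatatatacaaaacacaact

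The next 3 were picked for the word, and are the strongest ZF108-DMS3-only windows without a UTR that hold the word AAGATGTA (TACATCTT on the other strand), and the 140 bp upstream of the *FWA* start hold the same word at 2 places, each within a copy of a short repeat.
Nearest gene UGT85A7, chr1:7890113-7890233: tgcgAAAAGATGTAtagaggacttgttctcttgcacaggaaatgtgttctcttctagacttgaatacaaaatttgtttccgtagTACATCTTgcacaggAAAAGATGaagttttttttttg
Nearest gene AK3, chr3:336755-336875: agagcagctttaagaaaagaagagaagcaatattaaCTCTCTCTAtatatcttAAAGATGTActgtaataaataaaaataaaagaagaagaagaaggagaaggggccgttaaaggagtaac
Nearest gene AT1G72430, chr1:27266395-27266515: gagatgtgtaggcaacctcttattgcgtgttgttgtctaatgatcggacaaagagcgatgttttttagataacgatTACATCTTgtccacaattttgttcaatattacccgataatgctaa
Upstream of FWA, chr4:13038220-13038359: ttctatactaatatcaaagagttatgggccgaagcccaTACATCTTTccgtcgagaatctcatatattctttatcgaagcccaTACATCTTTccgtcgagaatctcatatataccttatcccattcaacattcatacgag

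The 3 strongest *h1*-only windows are shown beside these. None of the words lies in them, as in those near CRF3 and AT4G26288, and nothing is read from so few windows.
Between pseudogenes AT1G37100 and AT1G37110, chr1:14128832-14128952: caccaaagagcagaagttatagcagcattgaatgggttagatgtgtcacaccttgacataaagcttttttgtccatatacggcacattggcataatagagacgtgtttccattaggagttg
In lncRNA AT5G07695, chr5:20563903-20564023: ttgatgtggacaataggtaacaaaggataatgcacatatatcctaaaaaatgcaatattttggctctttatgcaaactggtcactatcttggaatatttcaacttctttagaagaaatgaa
In the coding sequence of AT3G28550, chr3:10703700-10703820: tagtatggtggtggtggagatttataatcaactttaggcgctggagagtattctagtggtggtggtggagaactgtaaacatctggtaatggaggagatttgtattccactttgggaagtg

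NRPE1 peaks in *h1* were broad and covered most of the heterochromatin, and those in ZF108-DMS3 were narrow and covered little of it. Windows of 100 kb were called H3K9me2-dense where at least 10% of their bases were under H3K9me2 regions of both WT H3K9me2 lists, which gave 233 of 1193 windows. Such windows held 59.4% and 59.2% of the NRPE1 peaks of *h1* replicates 1 and 2, and 13.1% and 30.8% of those of ZF108-DMS3. The means were 59.3% ± 0.158 in *h1* and 22.0% ± 12.5 in ZF108-DMS3 (SD, n = 2 each). Both *h1* libraries were higher than both ZF108-DMS3 libraries, whose own gap of 17.7 points was smaller than the mean difference of 37.3 points. In WT, the common reference, the share was 55.5% and 53.4%. Peaks covered 58.4% and 54.1% of the bases of these windows in *h1*, 4.06% and 9.11% in ZF108-DMS3, and 27.3% and 26.0% in WT. ZF108-DMS3 replicate 1 was thus covered less inside than outside dense windows, and replicate 2 more. Outside the dense windows the contrast was small, with 9.48% and 8.93% of bases covered in *h1*, 6.53% and 5.64% in ZF108-DMS3, and 7.53% and 8.11% in WT.

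**Figure D1:**
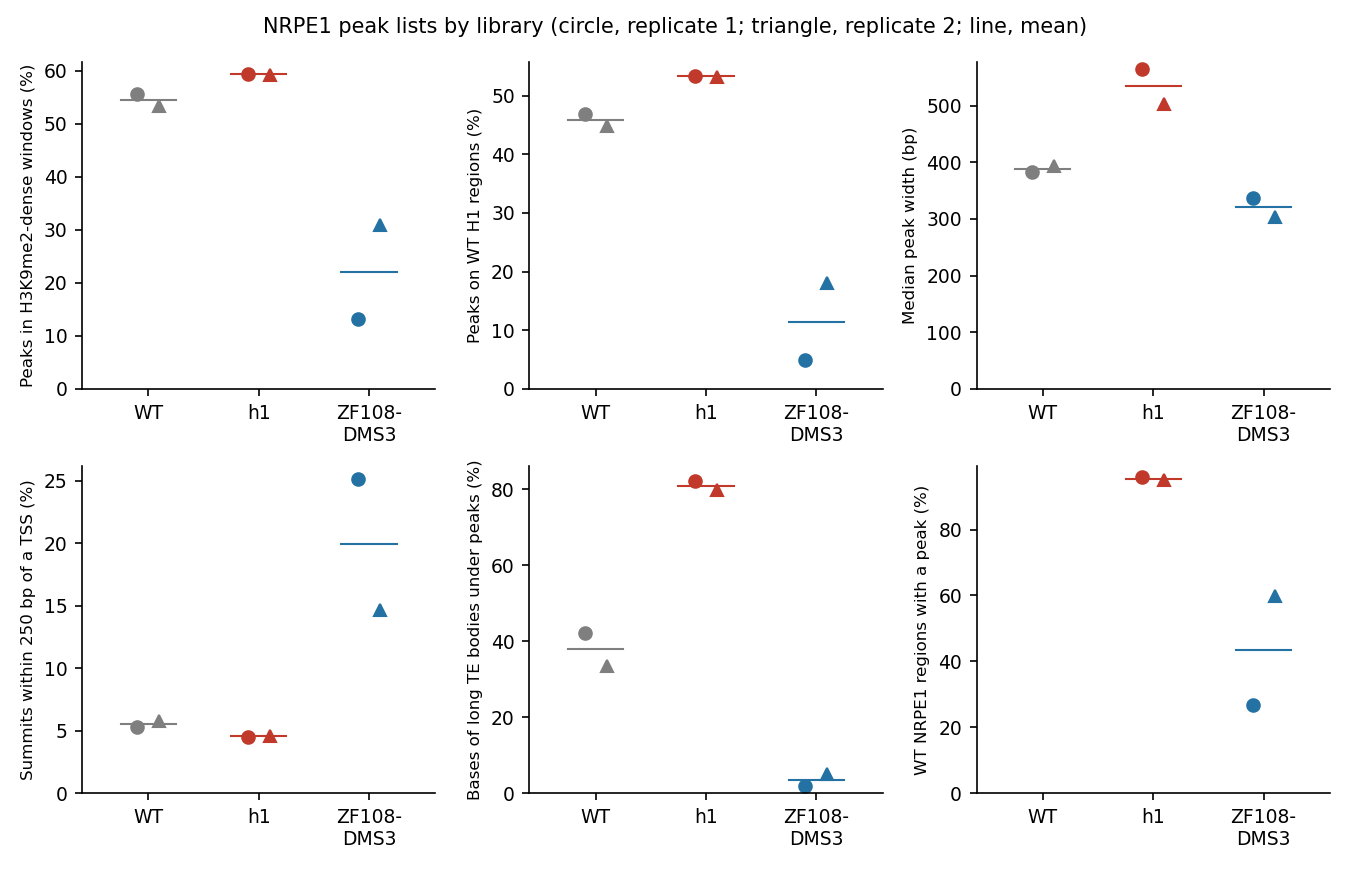
The plot shows 6 measures of the NRPE1 peak lists (percent, or bp for the width) for each library of WT, *h1* and ZF108-DMS3. Circles are replicate 1, triangles replicate 2, and lines the mean of the 2 libraries; the last panel leaves out WT, whose own regions define it. The *h1* libraries lie on one side of both ZF108-DMS3 libraries in every panel, and the ZF108-DMS3 libraries can lie far apart, as with 13.1% against 30.8% in dense windows.

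Coverage rose with the H3K9me2 content of the window in both *h1* libraries, up to 30 to 60% H3K9me2 in ZF108-DMS3 replicate 2 and in WT, and not in ZF108-DMS3 replicate 1. In the 781 windows without H3K9me2, peaks covered 6.54% and 6.13% of bases in *h1* and 6.45% and 5.10% in ZF108-DMS3, so that the ranges of the 2 genotypes overlapped. In the 134 windows with H3K9me2 over at least 60% of their bases, coverage was 63.6% and 57.9% in *h1* and 2.82% and 8.27% in ZF108-DMS3. ZF108-DMS3 replicate 1 was lowest in this class among all classes of window, while replicate 2 was highest at 30 to 60% H3K9me2, with 10.4%. In WT the coverage went from 5.65% and 6.18% without H3K9me2 to 28.7% and 28.9% at 30 to 60%, and both libraries were lower again in the class of at least 60%. By chromosome, dense windows held between 51.8% and 64.7% of the *h1* peaks, between 9.06% and 20.6% of those of ZF108-DMS3 replicate 1, and between 22.8% and 40.6% of those of replicate 2. On each of the 5 chromosomes both *h1* libraries were above both ZF108-DMS3 libraries.

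**Figure D2:**
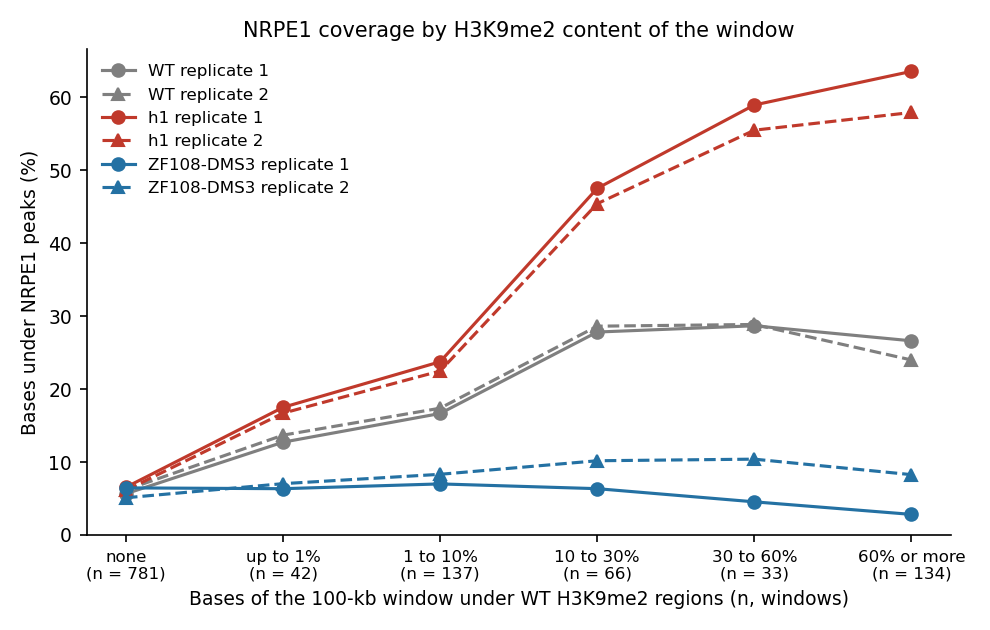
Percent of bases under NRPE1 peaks (vertical axis) in 100-kb windows grouped by the percent of their bases under WT H3K9me2 (horizontal axis, with the number of windows). Each line is 1 library; the *h1* lines climb to 63.6% and 57.9% in the class of 60% or more, where the ZF108-DMS3 lines are at 2.82% and 8.27%, and all lines meet at 5.10% to 6.54% in windows without H3K9me2.

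NRPE1 peaks in *h1* were wider. Their median width was 565 and 503 bp in *h1*, 337 and 304 bp in ZF108-DMS3, and 383 and 393 bp in WT. Peaks of more than 2 kb made up 10.7% and 8.79% of the *h1* lists (2563 and 2193 peaks), but 0.099% and 0.103% of the ZF108-DMS3 lists (18 and 21 peaks). In number, the *h1* peaks came to 23861 and 24961 (22.7 and 21.2 Mb) and the ZF108-DMS3 peaks to 18173 and 20358 (7.20 and 7.53 Mb). Few bases were shared between the genotypes. The bases common to both lists divided by those in either came to 0.0587 and 0.0614 for replicate 1 of ZF108-DMS3 against the 2 *h1* lists, and to 0.196 and 0.205 for replicate 2.

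Regions with an H1 peak in both WT H1 lists were overlapped, by at least 1 bp, by 53.4% and 53.1% of NRPE1 peaks in *h1*, by 4.85% and 18.1% in ZF108-DMS3, and by 46.9% and 44.8% in WT. For WT H3K9me2 regions the shares were 50.7% and 50.2% in *h1*, 5.35% and 18.9% in ZF108-DMS3, and 44.0% and 41.5% in WT. Peaks that had no counterpart in either WT list were then taken apart. There were 5414 and 5347 of them in *h1* and 12616 and 6318 in ZF108-DMS3. In *h1*, 76.2% and 77.6% of them lay on WT H1 regions, and 1.92% and 1.93% had a summit within 250 bp of a TSS. In ZF108-DMS3, 1.15% and 8.56% lay on WT H1 regions, and 30.0% and 28.1% had a summit near a TSS. These new peaks were among the weaker of the *h1* lists, with median percentiles of 20.4 and 20.1 by −log10 p, and near the middle of the ZF108-DMS3 lists, with 53.8 and 57.8. Since both sets were defined against the same WT lists, they share their controls.

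Over TEs, NRPE1 peaks in *h1* covered most of the bodies, and those in ZF108-DMS3 were mainly at the ends. The TEs were the 1562 of the study's sheet of long and short TEs. In the bodies of the 124 TEs over 5 kb, that is, what lies further than 1 kb inside either end, peaks covered 82.1% and 79.6% in *h1*, 2.00% and 5.06% in ZF108-DMS3, and 42.1% and 33.5% in WT. In the 806 TEs of 0.5 to 1 kb, coverage was 69.0% and 65.7% in *h1*, 13.2% and 38.9% in ZF108-DMS3, and 67.6% and 73.1% in WT. Of the first 250 bp inside the ends of the TEs over 5 kb, *h1* peaks covered 90.3% and 89.1%, and ZF108-DMS3 peaks 31.8% and 51.6%. WT peaks covered 74.2% and 73.7% there. At 500 to 750 bp inside the long TEs, coverage was still 86.02% and 83.4% in *h1*. It had come down to 2.40% and 8.82% in ZF108-DMS3, and was 51.0% and 49.2% in WT. A peak anywhere on the TE was found for all 124 long TEs in both *h1* lists and both WT lists, and for 95 and 114 of them in ZF108-DMS3. Of the 806 TEs of 0.5 to 1 kb, 97.1% and 98.1% held a peak in WT. Nearly all TEs of these classes were thus already bound in WT. Loci typed as pseudogenes in the annotation were counted as well, and how many of them are TEs was not examined. Of these 4843 loci, 83.4% and 82.8% held a peak in *h1*, 11.3% and 32.4% in ZF108-DMS3, and 67.7% and 66.7% in WT.

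**Figure D3:**
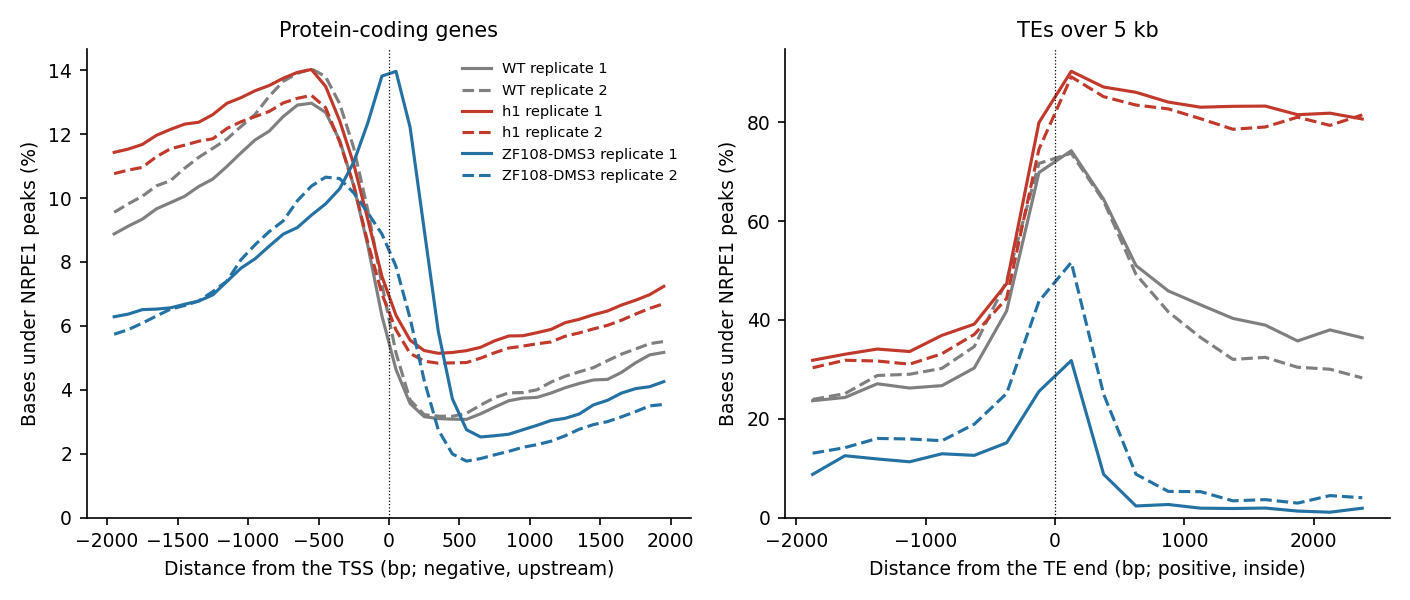
Percent of bases under NRPE1 peaks (vertical axes) by distance in bp from the TSS of protein-coding genes (left, bins of 100 bp) and from both ends of the 124 TEs over 5 kb (right, bins of 250 bp). Each line is 1 library. ZF108-DMS3 replicate 1 peaks at the TSS with 14.0%, and the *h1* lines stay above 78% inside long TEs, where both ZF108-DMS3 lines are under 10% from 500 bp inward.

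At genes the order was reversed in the shares of summits, but not in covered bases. Peaks covered 3.64% and 3.39% of the bases of protein-coding genes in *h1*, 3.69% and 1.95% in ZF108-DMS3, and 2.07% and 2.25% in WT. The ranges of *h1* and ZF108-DMS3 thus overlapped. Summits lay within protein-coding genes for 11.2% and 10.8% of peaks in *h1*, 35.2% and 17.2% in ZF108-DMS3, and 8.60% and 9.19% in WT. Summits within 250 bp of a TSS made up 4.53% and 4.57% of peaks in *h1*, 25.2% and 14.7% in ZF108-DMS3, and 5.29% and 5.78% in WT. Both ZF108-DMS3 libraries were higher than all other libraries on both measures, while the *h1* libraries were below WT near the TSS. By place, 19.3% and 8.78% of ZF108-DMS3 summits were in UTRs, against 1.66% and 1.65% in *h1*. In the profile over 27444 protein-coding genes, the 100 bp after the TSS were covered at 6.33% and 5.87% in *h1*, at 14.0% and 7.86% in ZF108-DMS3, and at 4.64% and 5.15% in WT. The highest coverage in *h1* was 600 to 500 bp upstream, with 14.02% and 13.2%. In ZF108-DMS3 replicate 2 the highest value, 10.7%, was also upstream, at 500 to 400 bp, so that a maximum on the TSS was a feature of replicate 1 alone. Within the gene bodies, at 500 to 600 bp after the TSS, the order turned, with 5.23% and 4.86% in *h1* and 2.76% and 1.77% in ZF108-DMS3.

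The fate of the sites bound in WT also differed. Of the 16898 merged regions with NRPE1 in both WT lists, 95.9% and 94.9% held a peak in *h1*, and 26.7% and 59.9% in ZF108-DMS3. In the opposite direction, 60.5% and 61.7% of *h1* peaks lay on such regions, and 29.2% and 64.7% of ZF108-DMS3 peaks. Here the *h1* values fell between those of the ZF108-DMS3 replicates (exact permutation test, p = 1), and without ZF108-DMS3 replicate 1 the difference turned to −3.62 points. Peaks were also ranked by −log10 p within their own list. In *h1*, 99.7% and 99.7% of the strongest 10% of peaks lay on WT regions, against 18.3% and 19.9% of the weakest 10%. In ZF108-DMS3 the strongest 10% was on WT regions less often than the weakest, with 18.5% against 40.9% in replicate 1 and 51.2% against 63.6% in replicate 2. The strongest 10% of ZF108-DMS3 peaks had 35.04% and 28.4% of summits near a TSS, and 0.660% and 2.41% on WT H1 regions. In the strongest 10% of *h1* peaks, these shares were 13.0% and 13.5% near a TSS and 24.9% and 25.2% on WT H1 regions.

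**Figure D4:**
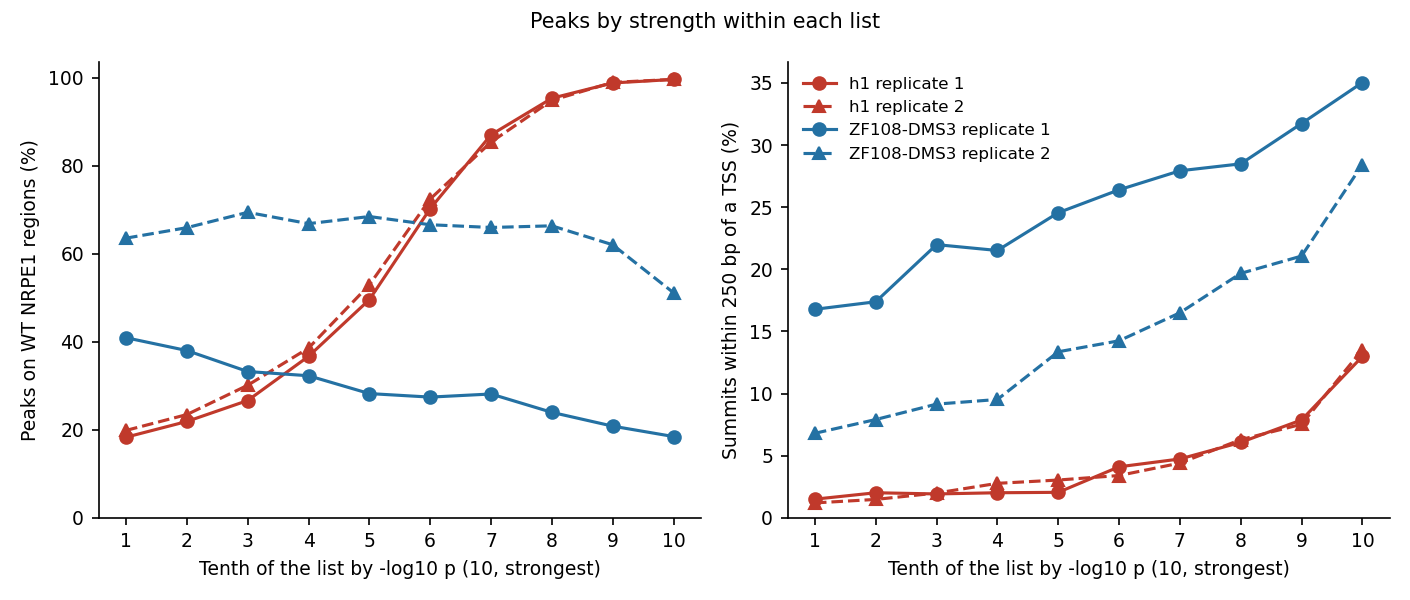
Peaks of each *h1* and ZF108-DMS3 list in 10 equal classes by −log10 p within the list (horizontal axes, 10 being the strongest), with the percent on WT NRPE1 regions (left) and the percent with a summit within 250 bp of a TSS (right). The *h1* lines climb from 18.3% and 19.9% to 99.7% on the left, and the ZF108-DMS3 lines end below where they start.

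The 4 lists were then merged into 35158 regions, so that single sites could be named. NRPE1 was present in both *h1* lists and in neither ZF108-DMS3 list at 7885 regions (22.4%), termed *h1*-only. It was present in both ZF108-DMS3 lists and in neither *h1* list at 5471 regions (15.6%), termed ZF108-DMS3-only, and in all 4 lists at 4105 regions (11.7%). A further 7244 regions were in ZF108-DMS3 replicate 1 alone and 504 in replicate 2 alone, and 5601 were in both *h1* lists and in replicate 2 but not in replicate 1. Without replicate 2, the ZF108-DMS3-only count was therefore 12835, and without replicate 1 the number of regions in all remaining lists was 9706. Without *h1* replicate 1, *h1* replicate 2 or ZF108-DMS3 replicate 2, the *h1*-only count was 14069, 13259 or 13586. Where peaks within 500 bp of each other were merged, the order of the classes turned, with 2082 *h1*-only regions, 4384 ZF108-DMS3-only regions and 4371 regions of all 4 lists. Counted in bases, the shares differed. Both *h1* lists and neither ZF108-DMS3 list covered 14.6 Mb (48.6% of the 30.1 Mb under any of the 4 lists), both ZF108-DMS3 lists and neither *h1* list covered 2.14 Mb (7.12%), and all 4 lists shared 1.42 Mb (4.74%).

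The 2 classes lay in different chromatin. Of the *h1*-only regions, 67.7% were in dense windows, 62.8% (4955) overlapped WT H1 regions, and 59.4% overlapped WT H3K9me2 regions. Of the ZF108-DMS3-only regions, 4.48% were in dense windows, 0.384% (21 regions) overlapped WT H1 regions, and 0.512% (28 regions) overlapped WT H3K9me2 regions. H1 was also mapped in the tethered line itself, and the H1 regions of both of those lists overlapped 62.4% of the *h1*-only and 0.366% of the ZF108-DMS3-only regions. Protein-coding genes were overlapped by 17.7% of *h1*-only and 54.2% of ZF108-DMS3-only regions, and pseudogenes by 43.4% and 0.877%. The strongest summit was in a UTR for 1.52% and 23.98%, and within 250 bp of a TSS for 2.80% and 31.6%. Of the *h1*-only regions, 48.0% had NRPE1 in both WT lists and 27.8% in neither, whereas 94.9% of the ZF108-DMS3-only regions had it in neither. Most *h1*-only regions were thus bound in at least 1 WT library. The mean GC content in 200 bp at the strongest summit was 37.4% for *h1*-only, 34.9% for ZF108-DMS3-only and 34.0% for regions of all 4 lists. These classes were made from the lists themselves, so the shares describe them and carry no test.

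The strongest ZF108-DMS3-only regions had their summits in UTRs, upstream of genes or between genes. The top region, chr5:20191686-20193030, had its summit in a UTR of AT5G49700 (AHL17, an AT-hook DNA-binding protein), with fold enrichments over the local background of 21.6 in replicate 1 and 19.5 in replicate 2. The next, chr2:14282584-14283601, had its summit in a UTR of *PHO2*, which encodes a ubiquitin-conjugating enzyme of phosphate homeostasis, with 22.2 and 16.5. The third, chr5:25646524-25647400, overlapped *XYP1*, which encodes a xylogen protein, with the summit upstream of the gene, with 20.4 and 17.2. A region at chr5:980048-981129 lay 198 bp from *CTR1*, the kinase that restrains ethylene signalling, with 22.1 and 16.2. Another, at chr5:21621898-21622757, was 2616 bp from *CRF3*, a cytokinin response factor, with 25.3 and 16.4. The sixth, chr4:13306998-13307747, overlapped AT4G26288 and AT4G26290, with 22.1 and 16.6. Their percentiles were at least 99.9 in both ZF108-DMS3 lists, and neither WT list had a peak at any of them. None overlapped a WT H1 or WT H3K9me2 region.

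Even within H3K9me2-dense windows, the strongest ZF108-DMS3-only regions carried neither WT H1 nor WT H3K9me2 regions. They were chr4:5155189-5156438 beside the non-coding RNA gene AT4G05365, with fold enrichments of 21.7 and 13.1, chr4:5150516-5151766 with its summit in a UTR of *KNAT1*, a homeobox gene of the meristem, with 20.4 and 13.9, and chr2:2355117-2355939 at AT2G06040, with 18.4 and 11.4. The last of these also had NRPE1 in both WT lists. In all, dense windows held 245 ZF108-DMS3-only regions and 5339 *h1*-only regions.

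The strongest *h1*-only regions were mostly pseudogenes, non-coding loci and gene bodies. At chr1:14126874-14130325, over the pseudogenes AT1G37100 and AT1G37110, the fold enrichment was 14.4 and 23.9 in *h1* replicates 1 and 2, and the region carried both H1 and H3K9me2 in WT. At chr5:20563488-20564695, over the lncRNAs AT5G07665 and AT5G07695, it was 13.03 and 16.2. At chr3:10700452-10704170 the region overlapped the protein-coding gene AT3G28550, with 10.7 and 15.0, and WT replicate 1 alone had a peak there. An intron of *FRO5*, a ferric reduction oxidase gene, held the summit of chr5:8107538-8108186, with 10.9 and 13.4 and a peak in WT replicate 1 alone. The pseudogene AT5G01335 lay within chr5:135583-139836, with 8.86 and 12.1, and *ACL*, an acetone-cyanohydrin lyase gene, overlapped chr2:10041392-10042152, with 11.4 and 12.6. Of these 6 regions, 4 overlapped WT H1 regions. The strongest *h1*-only regions without any WT peak were chr4:7831311-7831939 at the lncRNA AT4G06070, with 11.8 and 12.7, chr3:9883982-9884674 at AT3G26820, with 9.42 and 9.21, and chr2:6675176-6675866, 1186 bp from the pseudogene AT2G15330, with 9.22 and 10.9. Of these 3, the last overlapped a WT H1 region.

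At the 4105 regions of all 4 lists the genotypes shared a site but not its extent. The median number of bases under peaks per region was 1076 and 1022 in *h1*, and 419 and 674 in ZF108-DMS3. Both *h1* lists covered more bases than both ZF108-DMS3 lists at 3011 regions (73.3%), and both ZF108-DMS3 lists covered more at 445 (10.8%). In dense windows the medians were 1939.5 and 1881.5 bp in *h1* against 406 and 732.5 bp in ZF108-DMS3. The largest excess was at chr3:14761418-14779558, over the pseudogenes AT3G42680 to AT3G42711, where *h1* peaks covered 17698 and 17510 bp and ZF108-DMS3 peaks 1140 and 1912 bp. At chr4:11067027-11084878, a tandem array of the protein-coding genes AT4G20590 to AT4G20630 without WT H3K9me2, they covered 17852 and 15601 bp against 186 and 531 bp. The next were chr2:2035776-2052322, with 16176 and 15367 bp against 250 and 336 bp, and chr3:14689104-14705562, with 15275 and 15260 bp against 975 and 1117 bp, both mostly over pseudogenes. Summits of a region were 27 bp apart between *h1* replicates, 73 bp between ZF108-DMS3 replicates and 137 bp between replicate 1 of each genotype (medians). By strength within the list, these shared regions had median percentiles of 88.4 and 88.8 in *h1*, and of 47.2 and 77.9 in ZF108-DMS3. The *h1*-only regions ranked at 39.6 and 38.3, and the ZF108-DMS3-only regions at 81.0 and 64.4. In *h1* the shared regions thus ranked above the *h1*-only ones, in ZF108-DMS3 replicate 1 they ranked below the ZF108-DMS3-only ones, and in replicate 2 above them. SUVH1, a reader of DNA methylation mapped in *h1* as a 3xFLAG fusion, had a region in both of its lists at 2941 of the shared regions (71.6%), 1654 of the *h1*-only regions and 64 of the ZF108-DMS3-only regions (1.17%).

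Of the 2 loci best known for repeats silenced by RdDM, *FWA* was bound at its promoter in both libraries of each genotype. *SDC* was bound upstream in both *h1* libraries and in both WT libraries, but only in replicate 2 of ZF108-DMS3. At *FWA* (AT4G25530, chr4:13038360-13042464), the main peak had a fold enrichment of 8.97 and 10.3 in *h1*, 9.63 and 5.93 in ZF108-DMS3, and 5.67 and 6.96 in WT. Its summit was 36 and 65 bp upstream of the TSS in *h1*, and 69 and 34 bp upstream in ZF108-DMS3. The percentile within the list was 90.5 and 88.2 in *h1* and 90.5 and 90.3 in ZF108-DMS3, so the ranks at *FWA* overlapped. At *SDC* (AT2G17690, chr2:7682162-7684083), an F-box gene with tandem repeats upstream, *h1* had peaks of 1592 and 1580 bp over the upstream part, at percentiles of 84.2 and 85.0. In WT the same part held peaks of 547 and 1174 bp in replicate 1 and of 1928 bp in replicate 2, at percentiles of 64.6, 77.7 and 78.3. There ZF108-DMS3 replicate 2 had narrower peaks of 181 and 279 bp, and replicate 1 had a peak only across the 3′ end of the gene, with its summit 2174 bp after the TSS.

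Genes of the silencing machinery, listed as loci and not for their expression, were compared with all genes. Of the 27444 protein-coding genes with 500 bp upstream, 1606 (5.85%) had NRPE1 in both *h1* lists only, 3248 (11.8%) in both ZF108-DMS3 lists only, 2456 (8.95%) in all 4 lists, and 13254 (48.3%) in none. Among 17 genes of the RdDM machinery, 3 were *h1*-only, namely *DRD1* (the remodeller of the DDR complex), *SUVH9* (a methyl-DNA binding protein that helps to recruit Pol V) and *KTF1* (a Pol V associated elongation factor). All 3 also had NRPE1 in both WT lists. The 2 ZF108-DMS3-only genes were *NRPD2/NRPE2*, the second largest subunit of Pol IV and Pol V, and *CLSY1*, a remodeller that acts with Pol IV, and both had NRPE1 in WT replicate 2 as well. *DCL3*, the dicer of the pathway, had NRPE1 in all 4 lists, 7 genes were mixed and 4 had none. *DMS3* itself had a peak in both ZF108-DMS3 lists and in *h1* replicate 1. Of 10 genes that maintain or remove DNA methylation, the maintenance methyltransferase gene *MET1* and the H3K9 methyltransferase gene *KYP* were in all 4 lists, 4 were mixed and 4 had none. Of the 3 H1 genes, *H1.2* had a peak in ZF108-DMS3 replicate 1 alone and the others had none. With so few genes in each class, nothing is read from these counts about the lists.

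The 2 classes also differed in sequence words. Since they differ in genomic place as well, and no windows near a TSS or in UTRs were counted beside them, word and place cannot be told apart. Words of 8 bases, both strands counted as one, were ranked on chromosomes 1, 3 and 5 by their share in 200 bp at ZF108-DMS3-only summits relative to *h1*-only summits, among 171 words present in at least 5% of the former, and the top 10 were then counted on chromosomes 2 and 4, which had no part in the ranking. The first word was AAGATGTA (TACATCTT). It was present at 106 of 1697 ZF108-DMS3-only summits (6.25%), at 21 of 2753 *h1*-only summits (0.763%), and in 1.06% of all 191416 windows of 200 bp on those chromosomes. By library, the share of all summits with the word was 4.74% and 2.55% in ZF108-DMS3, 1.03% and 0.833% in *h1*, and 1.08% and 0.861% in WT, so both ZF108-DMS3 libraries were above every other library. In the strongest 10% of ZF108-DMS3 peaks it was 5.76% and 4.48%, and in the weakest 10% 3.27% and 1.52%.

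AAAGATGT (ACATCTTT) and AAAAGATG (CATCTTTT), ranked 9th and 10th, overlap the first word by 7 and 6 bases. They were present at 4.95% and 5.48% of ZF108-DMS3-only summits, 1.38% and 1.45% of *h1*-only summits, and 1.60% and 2.12% of all windows. The other 7 words were mostly runs of alternating A and G that overlap each other: AGAGAGAG, GAGAGAGA, TAGAGAGA, AGAGAGAA, AGAGAGAT, CTTCTCTC and AAGAGAGA, each with its complement on the other strand. At least 1 of the 7 was present at 21.3% of ZF108-DMS3-only summits, 6.43% of *h1*-only summits and 9.23% of all windows. These repeat words also followed strength in *h1*, at 15.4% and 16.6% of the strongest 10% and 4.88% and 5.08% of the weakest 10% of peaks, which the first word did not, at 1.38% and 1.21% against 1.08% and 1.22%.

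The position of the words was taken on chromosomes 2 and 4 alone, since the words were chosen on the others for lying near ZF108-DMS3-only summits. The first word started in the 20 bp after the summit at 1.18% of the 1697 ZF108-DMS3-only regions (20 regions), and in the bin of 200 to 180 bp upstream at 0.177% (3 regions). At the 2753 *h1*-only regions the same bins gave 0.109% and 0.145%. The repeat words reached 4.24% in the 20 bp after ZF108-DMS3-only summits, and were at 1.59% in the bin of 200 to 180 bp upstream. For *h1*-only regions these bins gave 0.872% and 0.908%, so ZF108-DMS3-only regions were higher in the upstream bin as well. The bases beside the word, unlike its position, were counted on all nuclear chromosomes, including those on which the word was chosen. These counts are therefore not held out from that choice. Read in the direction AAGATGTA, the 2 bases after the word upstream of *FWA* are followed by a G in the third place. That place was a G at 37.9% of the 327 occurrences of the word at ZF108-DMS3-only summits. The shares were 24.6% of 61 at *h1*-only summits and 16.1% of the 6583 occurrences in the nuclear genome. That place was singled out after its values were seen, as the one with the largest excess over the genome. Over the 12 flanking places within 6 bases of the word, a mean of 3.36 bases were as at *FWA* at ZF108-DMS3-only summits, 2.75 at *h1*-only summits and 2.74 in the genome. The fourth base before the word and the sixth after it were as at *FWA* at 12.2% and 26.9% of the occurrences at ZF108-DMS3-only summits, below the 16.4% and 31.1% of the genome.

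**Figure D5:**
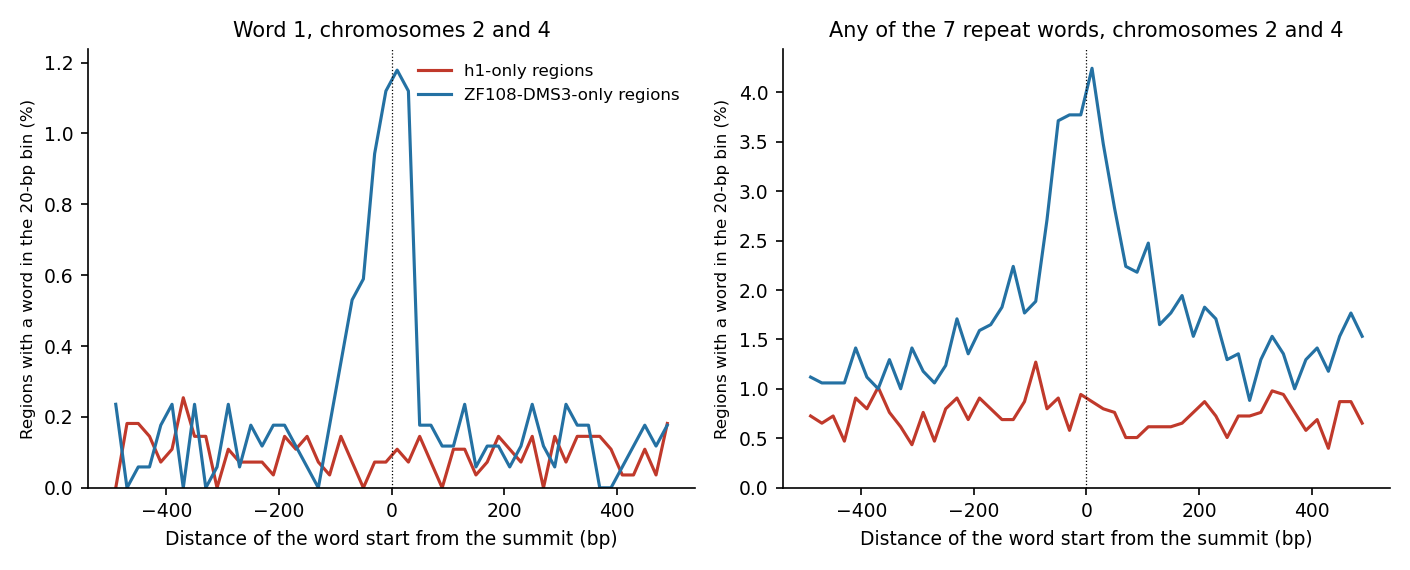
Percent of regions in which a word starts in each 20-bp bin (vertical axes) by distance in bp from the strongest summit (horizontal axes) on chromosomes 2 and 4, for the first word (left) and any of the 7 repeat words (right). Red lines are *h1*-only and blue lines ZF108-DMS3-only regions; the blue lines reach 1.18% and 4.24% next to the summit, and the red line on the left stays at or below 0.254%.

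Occurrences of the first word were covered in ZF108-DMS3 more often than all bases of the same chromatin. All 5 chromosomes were counted, including 1, 3 and 5, where the word was chosen for its excess at ZF108-DMS3-only over *h1*-only summits. The ratios of both genotypes are therefore partly set by that choice. Outside dense windows, 20.3% and 12.6% of 5437 occurrences were under a ZF108-DMS3 peak, and 6.53% and 5.64% of all bases, ratios of 3.11 and 2.24. In dense windows, 116 and 171 of 1146 occurrences and 4.06% and 9.11% of bases were covered, ratios of 2.49 and 1.64. In WT H1 regions, 3.81% and 7.04% of 682 occurrences were covered, against 20.3% and 13.7% of the 5901 outside them. All bases were covered at 1.70% and 6.001% in WT H1 regions and at 6.69% and 6.37% outside, so the ratios were 2.24 and 1.17 in these regions and 3.03 and 2.16 outside. In *h1*, the word had no such preference, with ratios of 0.987 and 0.962 outside and 0.982 and 0.964 inside dense windows. The share of its occurrences under *h1* peaks was 71.0% and 63.2% in WT H1 regions, close to the 70.4% and 65.1% of all bases there.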

How the data were processed

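Peak lists of 16 of the 18 libraries with a list were used: those of NRPE1 in each of the 3 genotypes, of H1 in the WT and the tethered line, of H3K9me2 with and without H1, and of SUVH1-3xFLAG in the *h1* background. The lists of H1 in *nrpe1* were not used here. Per the study's methods and the submitters' processing notes, reads were aligned to TAIR10 with Bowtie2 2.1.0, keeping uniquely mapping reads without mismatches, duplicates were removed with Samtools, and peaks were called for each library with MACS2 2.1.1. Repeats that reads cannot map to uniquely therefore give no peaks. The control and the settings of peak calling are not given in the sources used here. For each peak the authors deposited its start, end and summit, the fold enrichment (a ratio over the local background), and the −log10 of the p-value and q-value. No counts are in the lists, so depth is unknown and no interval from counting could be given.

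Starts were converted to count from 1, and only the 5 nuclear chromosomes were kept. Genes and sequences came from RefSeq TAIR10.1, whose nuclear chromosomes have the TAIR10 coordinates. Regions are peaks merged where they overlap or touch, and a region of an assay is one held by both of its lists. Any other overlap needs at least 1 bp. Strength is the percentile of −log10 p within a list. Groups of 2 libraries were compared by the exact permutation test. Named regions are the 6 highest of each genotype-only class by mean percentile and the 3 highest *h1*-only regions without a WT peak. Also named are the 3 highest *h1*-only regions with a protein-coding gene and no TE of the study's sheet. The 3 highest ZF108-DMS3-only regions in dense windows and the 4 regions of all 4 lists with the largest excess of bases in *h1* complete them. Genes of the lists with a peak in both libraries of 1 genotype only are named, and *FWA* always. The members, lists, tests and word search were chosen with earlier results of these data known. The region script was tested on simulated data. Alternatives were a −log10 q of at least 3, lists of equal length, an overlap of 0.5 of the shorter interval, H3K9me2 windows of at least 30%, 500 bp around the TSS, TE bodies from 2 kb inward, 100 bp at the summit, merging within 500 bp, leaving out each library, and the replicate block. Python 3.11.15, numpy 2.4.6, pandas 2.3.3 and matplotlib 3.10.9 were used.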

Additional observations from a re-analysis of the deposited data

Results flagged for a closer look

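On 8 measures both *h1* libraries lay on one side of both WT libraries and both ZF108-DMS3 libraries on the other. Both differences were taken from the same WT libraries, so the gap between them is that between *h1* and ZF108-DMS3, for which the exact permutation test gave p = 0.333 on each measure, the smallest it can give. The share of peaks in H3K9me2-dense windows was 4.84 points higher than in WT in *h1*, and fell by 32.5 points in ZF108-DMS3. The bases covered in dense windows differed by 29.6 points in *h1* and by −20.0 points in ZF108-DMS3. Outside dense windows the differences were 1.38 and −1.74 points. The median width differed by 146 bp in *h1* and by −67.5 bp in ZF108-DMS3. The share of peaks on WT H1 regions differed by 7.46 and −34.3 points, and that on WT H3K9me2 regions by 7.68 and −30.7 points. The share of summits near a TSS went the other way, with −0.988 points in *h1* and 14.4 points in ZF108-DMS3. The bases covered in long TE bodies differed by 43.1 and −34.3 points.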

How the results depend on the processing

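Of the alternative values of the 13 measures, 100 kept their direction and 1 reversed. No p could pass a threshold of 0.05 under any of them, so only directions are compared. Many of the 100 could not reverse. A replicate block leaves each mean difference unchanged. Leaving out 1 library cannot reverse the 12 measures on which both *h1* values lay on one side of both ZF108-DMS3 values. The value that reversed was that of the share of NRPE1 peaks on WT NRPE1 regions. This share differed by −3.62 points without ZF108-DMS3 replicate 1, and by −3.62 to 31.9 points with each library left out (14.1 with all). The *h1*-only count was 2082 where peaks within 500 bp were merged, in place of 7885, below the 4384 ZF108-DMS3-only regions then found, and ranged from 8127 to 14069 with each library left out. The ZF108-DMS3-only count ranged from 5526 to 12835, and the count of regions in all remaining lists from 4142 to 9706. Counted in bases (an alternative chosen after seeing the data), the classes made up 48.6% in place of 22.4%, 7.12% in place of 15.6% and 4.74% in place of 11.7%. The labels share replicate numbers without pairing the samples. With a replicate block the difference in the share of peaks in dense windows was 37.3 points (46.3 and 28.4 within the pairs, exact sign test p = 0.5, the smallest it allows). The block leaves mean differences as they were, so none could change direction. Within the pairs, the difference in the share of peaks on WT NRPE1 regions was 31.3 and −3.02 points. Over 1193 windows, the differences between replicates 1 and 2 correlated at 0.59 for WT and *h1*, −0.08 for WT and ZF108-DMS3, and −0.62 for *h1* and ZF108-DMS3. Peaks missed for lack of depth cannot be told apart from absent binding.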

Other observations

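Non-coding genes held NRPE1 peaks in both genotypes. Of 326 annotated miRNA genes, 89 and 91 had a peak in *h1* (27.3% and 27.9%), 50 and 62 in ZF108-DMS3 (15.3% and 19.0%), and 82 and 84 in WT. Of 625 tRNA genes, 103 and 99 had a peak in *h1*, 96 and 76 in ZF108-DMS3, and 80 and 68 in WT. Of 3480 lncRNA genes, 583 and 564 had one in *h1* (16.8% and 16.2%), 803 and 591 in ZF108-DMS3 (23.1% and 17.0%), and 476 and 523 in WT. Protein-coding genes with a peak made up 15.6% and 14.8% in *h1*, 28.7% and 17.8% in ZF108-DMS3, and 12.1% and 13.4% in WT. On miRNA genes both *h1* libraries were above both ZF108-DMS3 libraries. On tRNA genes they were too, but by as little as 99 against 96 genes. On lncRNA genes both were below, as on protein-coding genes. TEs of 2 to 5 kb, between the short and the long ones, were covered at 80.5% and 78.9% in *h1*, 50.2% and 51.6% in WT, and 6.63% and 17.5% in ZF108-DMS3. These counts carry no test.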
